A study of Mus musculus with 2 samples.

Results

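The Dlk1-Dio3 miRNA cluster is the large group of imprinted miRNA genes on mouse chromosome 12, and its small RNAs were described here in fetal liver with and without the slicing activity of Argonaute 2. Members were 47 miRNA names of the domain, taken from the miRNA class of the table with their arms and locus suffixes, out of 357 names in that class. All 47 had reads, 46 of them in Ago2ADH and 47 in wild type, and they came to 92 arms, of which 73 had 100 or more reads in both libraries together. Small RNA was sequenced from livers of B6/129 mice at E18.5, with 1 library of Ago2ADH mice, whose Argonaute 2 is catalytically inactive, and 1 library of wild type mice. The labels do not give the number of livers or animals behind a library, and with 1 library per genotype the differences have no replicate behind them and are given with no p-value.

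Most miRNAs are cut from hairpins, and 1 strand of the resulting duplex, the 5p or the 3p arm, stays in an Argonaute protein as the guide. Bases 2 to 8 of the guide, the seed, select the messages it represses, and Argonaute 2 can also cut a message that pairs with the guide along its length. In the Dlk1-Dio3 domain the maternal chromosome expresses the long noncoding RNAs Meg3, Rian and Mirg together with the miRNAs, and the paternal chromosome expresses the proteins Dlk1, Rtl1 and Dio3. The miRNAs of the domain are known from placenta, embryo and brain, and those opposite Rtl1 guide the cutting of the Rtl1 message.

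Exact matches to GENCODE hairpins placed the members between 109563692 and 109743795 of chromosome 12 (GRCm38, written chr12:109563692-109743795), all on the plus strand, from mmu-mir-770 to mmu-mir-410. Position set 4 stretches apart. The first holds 6 hairpins near Meg3, with mir-770 in a Meg3 exon, and the second holds mir-431, mir-433, mir-127, mir-434 and mir-136, which lie opposite a coding exon of Rtl1. mir-341 and mir-370 lie in introns of Rian, and the last stretch runs over 34 hairpins from mir-379 to mir-410. Of the 47 hairpins, 8 lie in exons and 4 in introns of Mirg, and 27 overlap no GENCODE gene other than miRNA genes.

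The arms on which the results turn are written here 5′ to 3′ as their most frequent read, with the seed in capitals. The first group shows mmu-mir-136, mmu-mir-299 and mmu-mir-376a, whose arms miR-136-5p, miR-376a-3p and miR-299-3p rose, each with the other arm of the hairpin.
miR-136-5p: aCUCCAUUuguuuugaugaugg
miR-136-3p: aUCAUCGUcucaaaugagucu
miR-299-3p: uAUGUGGGacgguaaaccgcu
miR-299-3p, form starting 1 base earlier: gUAUGUGGgacgguaaaccgcu
miR-299-5p: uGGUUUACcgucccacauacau
miR-376a-3p: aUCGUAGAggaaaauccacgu
miR-376a-5p: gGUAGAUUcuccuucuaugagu
The second group shows arms whose seeds differ from one another by 1 base, and the seed of miR-379-3p, which miR-411-3p shares.
miR-376b-3p: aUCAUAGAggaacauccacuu
miR-376c-3p: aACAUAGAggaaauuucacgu
miR-154-3p: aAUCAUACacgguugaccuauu
miR-369-3p: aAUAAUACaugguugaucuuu
miR-487b-3p: aAUCGUACagggucauccacuu
miR-300-3p: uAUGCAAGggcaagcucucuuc
miR-381-3p: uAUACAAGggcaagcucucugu
miR-379-5p: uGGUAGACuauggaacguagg
miR-411-5p: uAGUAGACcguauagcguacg
miR-379-3p: uAUGUAACaugguccacuaac
miR-411-3p: uAUGUAACacgguccacuaac
The third group holds the most abundant arm and the main arms of the hairpins opposite Rtl1, with both start forms of miR-127-5p.
miR-541-5p: aAGGGAUUcugauguuggucac
miR-431-5p: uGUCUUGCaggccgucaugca
miR-433-3p: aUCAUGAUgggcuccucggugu
miR-127-3p: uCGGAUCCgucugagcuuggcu
miR-127-5p: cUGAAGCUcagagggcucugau
miR-127-5p, form starting 2 bases later: gAAGCUCAgagggcucugauu
miR-434-3p: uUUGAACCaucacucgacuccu
Of the 73 arms with 100 or more reads, 70 had a mature sequence in RefSeq (GRCm38.p6). The main read began at the RefSeq start in 63 of them and was the RefSeq sequence letter for letter in 47. It began elsewhere in 7 arms, among them miR-382-3p and miR-431-3p, whose main reads began 2 bases before the RefSeq start.

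The libraries held 7046197 reads in Ago2ADH and 7599870 reads in wild type. Of these, 2811227 in Ago2ADH and 2808232 in wild type were miRNA reads, so that a count of 3, the limit that a count of 0 allows, was a level of 1.07 RPM (reads per 1000000 miRNA reads) in Ago2ADH and 1.07 RPM in wild type. Sequences were amplified by PCR, so all intervals, given at 95%, cover counting error only. The mRNA marker counts that follow are not scaled to the size of the libraries. Hepatocyte mRNA markers were all detected (8 of 8 genes, 83934 reads in Ago2ADH and 86088 in wild type). Per 1000000 reads of all classes that was 11912 in Ago2ADH and 11328 in wild type. Afp and Trf had more reads in Ago2ADH, and the other hepatocyte genes had fewer. The erythroid list (8 of 8 genes) summed to 8239 reads in Ago2ADH and 13791 in wild type. Of its genes Tfrc was higher in Ago2ADH, with 229 reads there and 178 in wild type, and the others had fewer reads in Ago2ADH. Of the erythroid miRNAs, mir-451, which needs Argonaute 2 slicing for its maturation, had 1928 RPM in Ago2ADH and 116723 RPM in wild type. The other, mir-144, went the opposite way, with 8785 RPM in Ago2ADH and 3705 RPM in wild type. The endothelial and stellate list had 165 reads in Ago2ADH and 233 in wild type (8 of 8 genes), and the skeletal muscle list 21 in Ago2ADH and 37 in wild type (7 of 8 genes). The neuron list had 30 reads in Ago2ADH and 28 in wild type, with 4 of 8 genes at 0, among them Tubb3 and Map2. Of the neuron miRNAs, mir-124 had 339.0 RPM in Ago2ADH and 285.2 RPM in wild type. For mir-9 the levels were 323.0 RPM in Ago2ADH and 275.3 RPM in wild type, and for mir-128 382.0 and 353.2 RPM. Of the muscle miRNAs, mir-206 had 47.3 RPM in Ago2ADH and 151.3 RPM in wild type. In the same order mir-133b had 29.5 and 57.7 RPM, mir-1 67.2 and 86.9 RPM, and mir-133a 183.9 and 167.0 RPM. What these markers contribute to the values below was not tested, and in bulk tissue fewer cells of a type and less RNA per cell cannot be told apart.

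The cluster was abundant in both libraries. Its reads numbered 351618 in Ago2ADH, 12.5% of miRNA reads (interval 12.47 to 12.55), and 302576 in wild type, 10.8% (10.74 to 10.81), a log2 ratio of Ago2ADH to wild type of 0.22 (0.21 to 0.22). The ratio was above 0 under each scaling tried, but it was 0.014 with totals that leave out the 10 most abundant miRNA arms of either library. Another scaling moves every arm by the same amount, by 0.11 for all reads, -0.14 for TMM, -0.15 for median-of-ratios, -0.18 for totals without mir-451 and -0.20 for totals without those 10 arms, so ratios between -0.11 and 0.20 change sign under at least 1 of them. The wild type level of a member arm had a median of 241.8 RPM, against 19.2 RPM for the arms of all other miRNAs, and 13 of the 50 most abundant wild type arms were members.

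The 34 hairpins from mir-379 to mir-410 held 8.86% of miRNA reads in Ago2ADH and 7.51% in wild type, for a log2 ratio of 0.24 (0.23 to 0.25). The 5 hairpins opposite Rtl1 held 2.89% in Ago2ADH and 2.64% in wild type, for a log2 ratio of 0.13 (0.12 to 0.15). The hairpins near Meg3 held 0.479% in Ago2ADH and 0.440% in wild type (0.12, interval 0.09 to 0.16). The pair in Rian introns stood highest, with 0.274% in Ago2ADH and 0.186% in wild type, for a log2 ratio of 0.56 (0.51 to 0.61), which came from mir-341. Its arm miR-341-3p had 2173 RPM in Ago2ADH and 1346 RPM in wild type (0.69, interval 0.63 to 0.75), while miR-370-3p had 549.9 RPM in Ago2ADH and 491.4 RPM in wild type (0.16, interval 0.06 to 0.27).

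**Figure D1:**
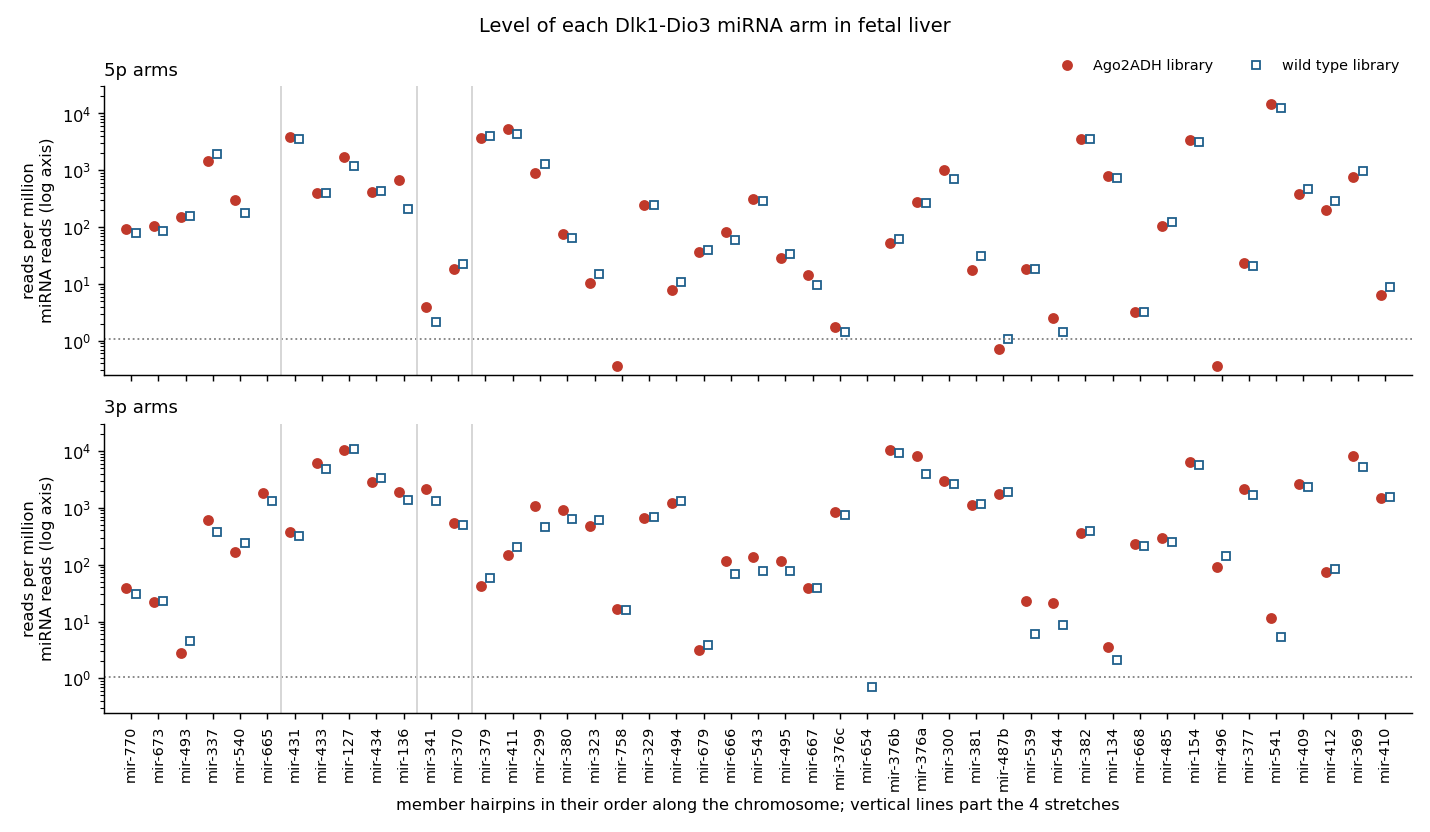
Level of each member arm, in RPM on a log axis, for the 5p arms (upper panel) and 3p arms (lower panel), with the hairpins in their order along chromosome 12. Filled circles are the Ago2ADH library, open squares the wild type library, and the dotted line is the 1.07 RPM that a count of 3 gives. Arms at 0 are not drawn. The 2 libraries lie close for most arms over a range from under 1 RPM to 14985 RPM, and miR-136-5p, miR-376a-3p and miR-299-3p show the gaps described in the text.

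A few arms made up most of the cluster. The 5 arms with most wild type reads held 40.5% of the cluster's reads in Ago2ADH and 40.4% in wild type, and the first 12 held 67.3% in Ago2ADH and 66.1% in wild type. miR-541-5p led in both libraries, with 14985 RPM in Ago2ADH and 12646 RPM in wild type (log2 ratio 0.24, interval 0.22 to 0.27). miR-127-3p, which pairs fully with the Rtl1 message, had 10477 RPM in Ago2ADH and 10706 RPM in wild type (-0.03), and miR-376b-3p had 10569 RPM in Ago2ADH and 9226 RPM in wild type (0.20). In wild type these 3 arms stood in this order beyond their counting intervals, while in Ago2ADH the intervals of miR-376b-3p and miR-127-3p overlapped.

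Below them came 2 arms of related seeds, miR-154-3p with 6502 RPM in Ago2ADH and 5757 RPM in wild type (0.18), and miR-369-3p with 8066 RPM in Ago2ADH and 5240 RPM in wild type (0.62, interval 0.59 to 0.65). miR-369-3p thus stood above miR-154-3p in Ago2ADH and below it in wild type. miR-433-3p had 6159 RPM in Ago2ADH and 4902 RPM in wild type (0.33), and miR-411-5p had 5261 RPM in Ago2ADH and 4379 RPM in wild type (0.26). The remaining 5 of the 12 were miR-379-5p (-0.13), miR-376a-3p (1.04), miR-382-5p (0.02), miR-431-5p (0.15) and miR-434-3p (-0.21). In wild type the intervals of miR-382-5p and miR-431-5p overlapped. In Ago2ADH those of miR-369-3p and miR-376a-3p overlapped, and so did those of miR-379-5p and miR-382-5p.

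The lowest members were at the edge of detection. miR-654-3p had 0 reads in Ago2ADH and 2 in wild type, and mir-654 is the member without a read in Ago2ADH. miR-496-5p and miR-758-5p had 1 read each in Ago2ADH and 0 in wild type. Over the 73 arms with 100 or more reads the levels of the libraries had a Spearman correlation of 0.985, a description over arms that share their library, depth and scaling.

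In the cluster 3 arms rose and none fell, while with totals without the 10 most abundant arms 1 was higher (miR-136-5p) and 1 lower (miR-381-5p). The rule for a call asked for 100 or more reads, a ratio of 2 or more or of 0.5 or less, and an interval that leaves out equal levels; over all 354 miRNA arms with enough reads it called 5.65% higher and 0.847% lower, 6.5% in all. The members' 3 of 73 is 4.11%, near that background. Their median log2 ratio was 0.12, beside 0.15 over all 354 arms and 0.16 over the other 281, with 42 arms above 0 and 31 below. With median-of-ratios scaling the member median was -0.028, with 35 arms above 0.

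Among the arms past the rule miR-136-5p had the highest ratio. This arm, encoded opposite Rtl1, had 1875 reads (667.0 RPM) in Ago2ADH and 578 reads (205.8 RPM) in wild type, for a log2 ratio of 1.70 (1.56 to 1.83). It stayed past the rule under each scaling tried and with a limit of 3-fold. The other arm of its hairpin, miR-136-3p, had 5354 reads in Ago2ADH and 3892 wild type reads, for a log2 ratio of 0.46 (0.40 to 0.52), within the rule. Each of the 3 most frequent reads of miR-136-5p was higher in Ago2ADH, the main one with 972 reads in Ago2ADH and 288 in wild type and a form 1 base longer with 353 reads in Ago2ADH and 93 in wild type.

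miR-299-3p rose while the arm across from it did not. It had 3011 reads in Ago2ADH and 1314 wild type reads, for a log2 ratio of 1.19 (1.10 to 1.29). miR-299-5p had 2527 reads in Ago2ADH and 3554 wild type reads, for a log2 ratio of -0.49 (-0.57 to -0.42). Without the 10 most abundant arms in the totals miR-299-3p came to 0.99, just under the limit.

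miR-376a-3p was the abundant arm among the 3. It had 22599 reads (8039 RPM) in Ago2ADH and 10965 reads (3905 RPM) in wild type, for a log2 ratio of 1.04 (1.01 to 1.07). It lay close to the limit and was under it with median-of-ratios scaling (0.89), TMM (0.90), totals without the 10 most abundant arms (0.84) or without mir-451 (0.87), and reads of 20 to 24 nt (0.98). miR-376a-5p, from the same hairpin, had 789 reads in Ago2ADH and 754 in wild type (0.06, interval -0.08 to 0.21).

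The relatives of miR-376a-3p were within the rule. miR-376b-3p had 29712 reads in Ago2ADH and 25910 in wild type (0.20, interval 0.17 to 0.22), and miR-376c-3p had 2359 reads in Ago2ADH and 2074 in wild type (0.18, interval 0.10 to 0.27). Their hairpins lie close together in the order mir-376c, mir-376b and mir-376a, with mir-654 between the first and the second. The seed of miR-376a-3p becomes that of miR-376b-3p by G4A and that of miR-376b-3p becomes that of miR-376c-3p by U2A, with positions counted from 1 at the 5′ end and the base of the arm named first given first. Of the member reads, 99.2% match the genome once.

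**Figure D2:**
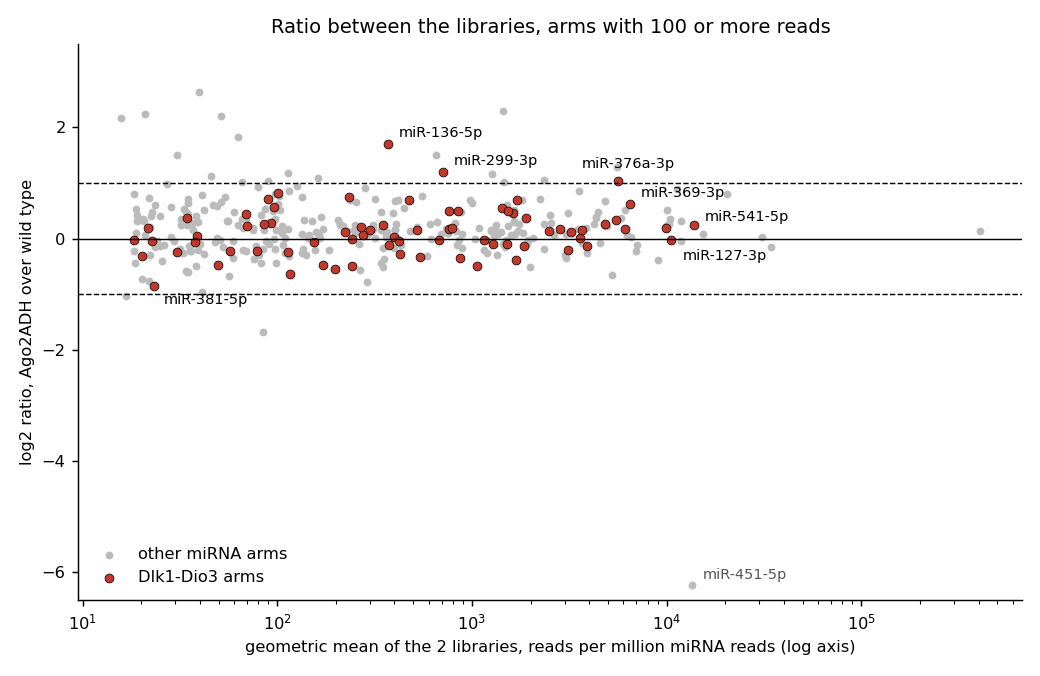
Log2 ratio of Ago2ADH to wild type against the geometric mean level of the 2 libraries (RPM, log axis) for arms with 100 or more reads. Dark outlined points are the 73 member arms, grey points the 281 others, and dashed lines mark a log2 ratio of 1 and of -1. The member arms lie between -0.85 and 1.70, and miR-136-5p, miR-376a-3p and miR-299-3p lie above the upper line. The lone grey point at the bottom is miR-451-5p.

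miR-381-5p was the lowest member arm past the read minimum. It had 49 reads in Ago2ADH and 88 wild type reads, for a log2 ratio of -0.85 (-1.38 to -0.33). This was within the rule, but past it at -1.02 with totals without mir-451 and at -1.05 without the 10 most abundant arms. The main arm of the hairpin, miR-381-3p, had 3221 reads in Ago2ADH and 3285 in wild type (-0.03).

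Some arms of near-identical seed had unequal log2 ratios, while those of miR-376b-3p and miR-376c-3p, given above, were close. Among arms with 100 or more reads 1 seed was shared, AUGUAAC of miR-411-3p and miR-379-3p, and it had 529 reads in Ago2ADH and 731 in wild type, for a log2 ratio of -0.47 for their sum; the main arms of those hairpins, miR-411-5p and miR-379-5p, whose seeds differ by G2A when miR-379-5p is given first, were at 0.26 and -0.13. miR-154-3p and miR-369-3p, related by C4A, were at 0.18 and 0.62, and miR-487b-3p, related to miR-154-3p by A5G, was at -0.12. miR-300-3p and miR-381-3p, related by G4A, were at 0.17 and -0.03. The seed of miR-381-3p, AUACAAG, was also that of miR-539-3p, an arm under the read minimum with 64 reads in Ago2ADH and 17 in wild type (1.91, interval 1.12 to 2.78). None of the arms of these seeds with 100 or more reads passed the size rule, which was not applied to miR-539-3p. The differences between the arms were not tested.

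The hairpins opposite Rtl1 are the ones whose arms pair with a message of the domain along their whole length, as the main reads of all 10 arms did with the annotated Rtl1 transcript. miR-136-5p rose, and the other 9 arms lay between -0.21 and 0.55. miR-431-5p had 10906 reads in Ago2ADH and 9813 in wild type (0.15), and miR-431-3p had 1067 reads in Ago2ADH and 898 in wild type (0.25). For mir-433 the 3p arm had 17313 reads in Ago2ADH and 13767 in wild type (0.33), and the 5p arm 1127 in Ago2ADH and 1097 in wild type (0.04).

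The arms of mir-127 differed. miR-127-3p had 29454 reads in Ago2ADH and 30066 in wild type (-0.03), while miR-127-5p had 4882 reads in Ago2ADH and 3321 in wild type (0.55, interval 0.49 to 0.62). miR-434-3p had 8178 reads in Ago2ADH and 9427 in wild type (-0.21), and miR-434-5p had 1166 in Ago2ADH and 1194 in wild type (-0.04). The median over the 10 arms was 0.20.

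Cut pieces of the Rtl1 message were looked for at the 10 sites. Reads lay over 1 site, that of miR-136-5p, with 1 read in Ago2ADH and 3 reads in wild type. Argonaute 2 cuts opposite bases 10 and 11 of the guide. Reads that began within 1 base of the one opposite base 10 numbered 0 in Ago2ADH and 0 in wild type. A count of 0 allows up to 3 reads. The search used reads listed under Rtl1, of which 10 of 102 lie on the message, too few to decide whether it is cut. The fraction sequenced holds RNA of about 19 to 30 nt, and the deposited reads have 15 to 34 nt, so longer pieces were not measured. Over all 47 hairpins the opposite strand had 69 reads in Ago2ADH and 62 in wild type, of which 58 in Ago2ADH and 44 in wild type lay across from mir-337; across from the 5 hairpins opposite Rtl1 there was 1 read in Ago2ADH and 3 in wild type.

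The balance between the arms of a hairpin shifted in 5 members. For each hairpin the minor arm is that with the smaller read sum of the pair of libraries, and its odds were called when they changed by 2-fold or more with an interval that leaves out no change. Of 37 member hairpins with enough reads, 4 had a higher and 1 a lower odds of the minor arm, beside 9.15% higher and 6.71% lower, 15.9% in all, over the 164 hairpins tested. The member shares of 10.8% and 2.70% lie near that background.

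In mir-299 the order of the arms turned round. The 3p arm held 54.4% of the hairpin's reads in Ago2ADH (interval 53.05 to 55.69) and 26.99% in wild type (25.75 to 28.26), a log2 odds ratio of 1.69 (1.57 to 1.81). In mir-136 the 5p arm held 25.9% in Ago2ADH and 12.9% in wild type (1.24, interval 1.09 to 1.38). These are the hairpins of the 2 arms with the largest rises, and the odds use the same reads as those ratios.

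mir-337, mir-539 and mir-540 were the others. miR-337-3p held 28.99% of its hairpin's reads in Ago2ADH and 16.2% in wild type (1.07, interval 0.95 to 1.20), with log2 ratios of 0.69 for the 3p arm and -0.38 for the 5p arm. miR-539-3p held 55.7% in Ago2ADH and 24.6% in wild type (1.91, interval 0.97 to 2.85), on 64 reads in Ago2ADH and 17 in wild type. mir-540 went the other way: its 3p arm held 35.3% in Ago2ADH and 57.1% in wild type (-1.29, interval -1.52 to -1.05), so that the 5p arm was the larger one in Ago2ADH and the 3p arm in wild type.

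Just inside the limit lay mir-376a and mir-369. The 5p arm of mir-376a held 3.37% in Ago2ADH and 6.43% in wild type (-0.98), and that of mir-369 held 8.70% in Ago2ADH and 15.7% in wild type (-0.97). With a limit of 1.5-fold 12 of the 37 member hairpins were called, 6 in each direction. Over all miRNAs 24 of the 164 hairpins were higher and 29 lower, so the member share lies near that background. Over the 29 member hairpins with 100 or more reads on each arm, the log2 ratios of the 2 arms differed by a median of 0.41, beside 0.43 over 79 other hairpins.

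**Figure D3:**
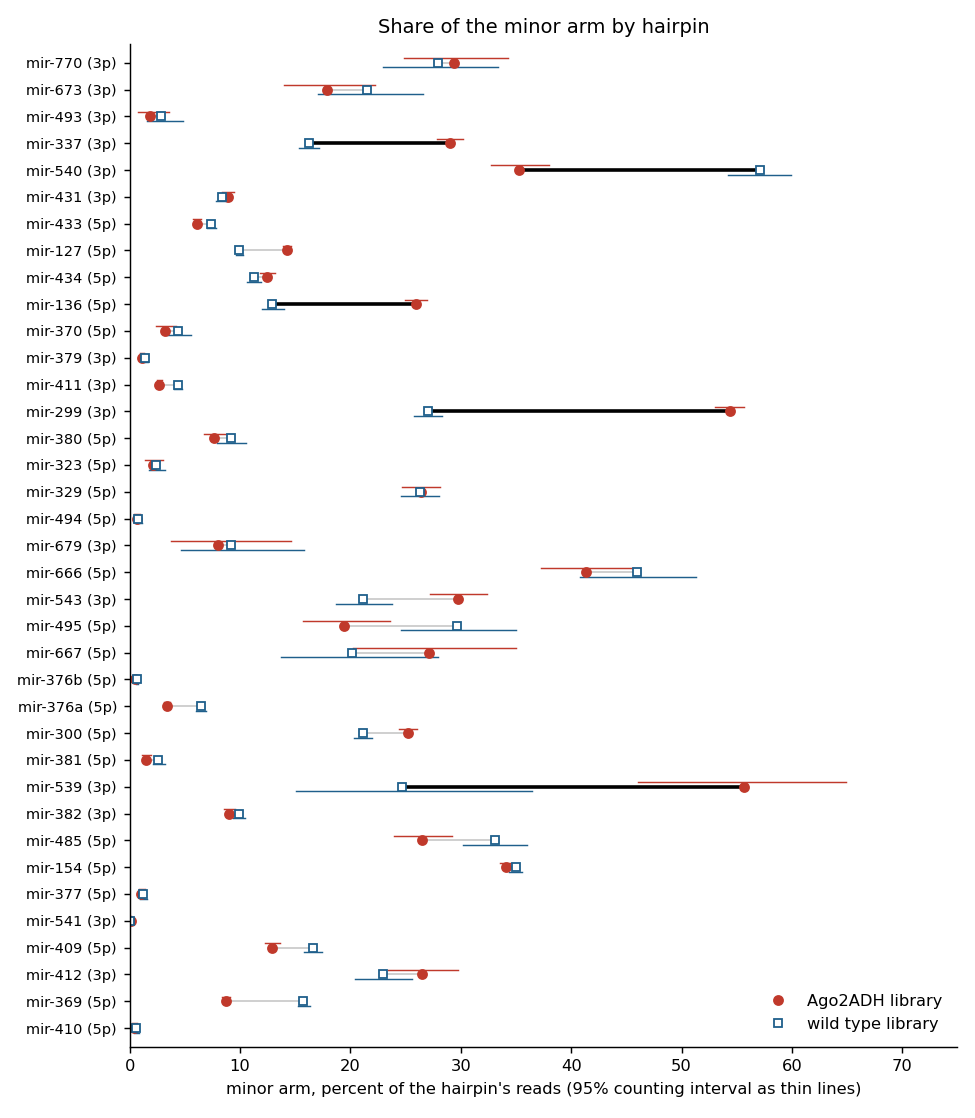
Share of the minor arm, as a percent of the hairpin's reads, for the 37 member hairpins with enough reads, from the first along chromosome 12 at the top to the last at the bottom. Filled circles are the Ago2ADH library and open squares the wild type library, thin lines are 95% counting intervals, and black bars join the 5 hairpins past the limit. In mir-299 the 3p arm stands at 54.4% in Ago2ADH and 26.99% in wild type, and in mir-540 at 35.3% in Ago2ADH and 57.1% in wild type.

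The first base of a read sets its seed, and it moved by 10 percentage points or more in 2 of 66 member arms with 200 or more reads, beside 2.32% of all 302 arms, 1.32% with a higher and 0.993% with a lower share of the main start. In miR-299-3p the main start held 50.7% of reads in Ago2ADH (48.9 to 52.5) and 71.2% in wild type (68.7 to 73.7). The form starting 1 base earlier, printed above, had 1438 reads in Ago2ADH and 343 in wild type, which is 47.8% of the arm in Ago2ADH and 26.1% in wild type. Its log2 ratio was 2.07 (1.90 to 2.24), against 0.71 (0.59 to 0.82) for the main start, so the rise of this arm was largest in the form with the seed UAUGUGG.

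In miR-127-5p the main start held 64.7% of reads in Ago2ADH and 52.3% in wild type. The form starting 2 bases later had 1367 reads in Ago2ADH and 1313 in wild type (log2 ratio 0.06, interval -0.05 to 0.17), while the main start had 3157 in Ago2ADH and 1737 in wild type (0.86, interval 0.78 to 0.95). The higher level of this arm in Ago2ADH thus lay in the reads with the seed UGAAGCU.

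The next arms in order of difference were within the limit. The main start of miR-666-3p held 59.1% in Ago2ADH and 68.9% in wild type, and it was past the limit with reads of 20 to 24 nt. That of miR-667-3p held 84.5% in Ago2ADH and 91.6% in wild type, on 110 reads in Ago2ADH and 107 in wild type. miR-337-3p used its main start in 52.9% of reads in Ago2ADH and 59.5% in wild type, and a start 1 base earlier in 45.2% in Ago2ADH and 38.1% in wild type.

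**Figure D4:**
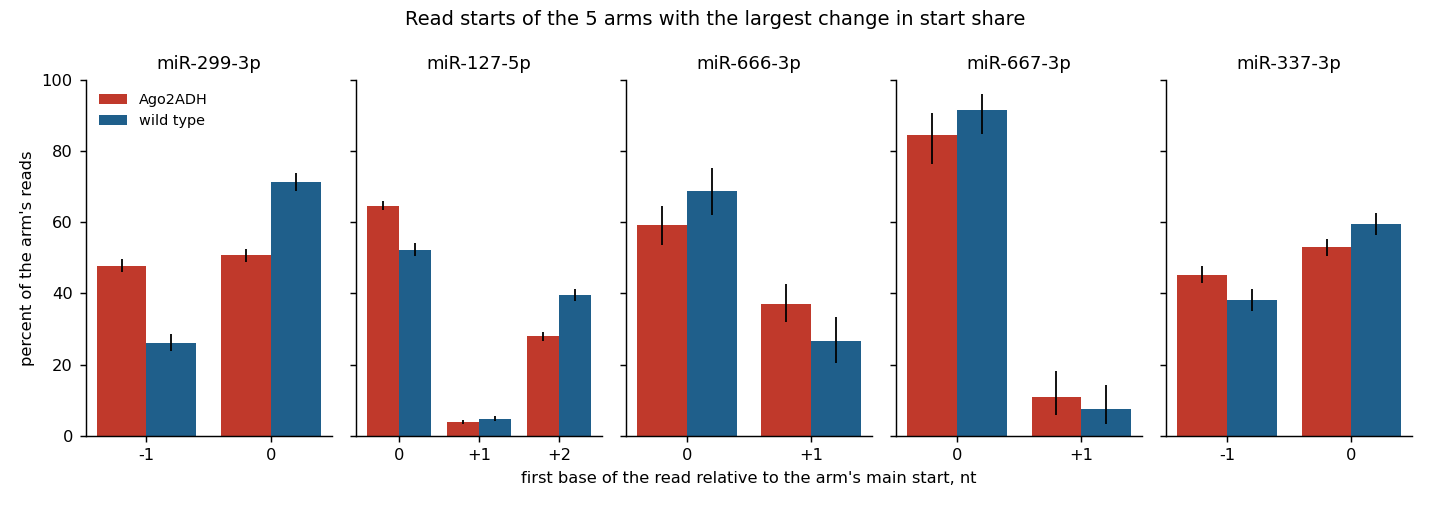
Share of an arm's reads by first base, relative to the arm's main start (0; negative values lie toward the 5′ end), for the 5 member arms with the largest difference in main start share. Left bars are the Ago2ADH library, right bars the wild type library, and black lines are 95% counting intervals; starts under 2% in both libraries are left out. In miR-299-3p the start 1 base earlier stands at 47.8% in Ago2ADH and 26.1% in wild type.

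Reads of the cluster were shorter than those of the other miRNAs in both libraries. Reads of 21 nt made up 38.0% of the cluster in Ago2ADH and 35.6% in wild type, beside 12.3% in Ago2ADH and 10.4% in wild type for all other miRNAs. Reads of 22 nt made up 39.9% of the cluster in Ago2ADH and 41.7% in wild type. The mean length was 21.6 nt in Ago2ADH and 21.5 nt in wild type, beside 21.96 nt in Ago2ADH and 22.15 nt in wild type for the other miRNAs. Without mir-451 the mean of the other miRNAs was 21.96 nt in Ago2ADH and 21.94 nt in wild type. These values weigh each read alike, and the other miRNAs include mir-122, with 1195978 reads in Ago2ADH and 1085919 in wild type. Counted by arm, the main read was 21 nt long in 17 of 73 member arms and in 48 of 281 other arms.

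Long reads came mostly from 1 arm. Reads of 25 and 26 nt numbered 13671 in Ago2ADH and 11364 in wild type, and miR-541-5p gave 93.8% of them in Ago2ADH and 93.1% in wild type. Its lengths had a peak at 22 nt, with 29.3% of its reads in Ago2ADH and 31.4% in wild type, and another at 25 nt, with 25.4% in Ago2ADH and 24.3% in wild type.

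Between the libraries the share of reads of 23 nt or longer moved by 10 percentage points in 1 of 66 member arms, beside 2.32% of all 302 arms. In miR-485-5p it was 59.5% in Ago2ADH (53.7 to 65.2) and 48.3% in wild type (42.9 to 53.7), and with 24 nt as the minimum the difference was -1.60 percentage points. The other arms with the largest differences were miR-666-3p (-8.41 percentage points), miR-666-5p (7.34), miR-679-5p (6.28) and miR-127-5p (6.08), all given as Ago2ADH minus wild type.

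**Figure D5:**
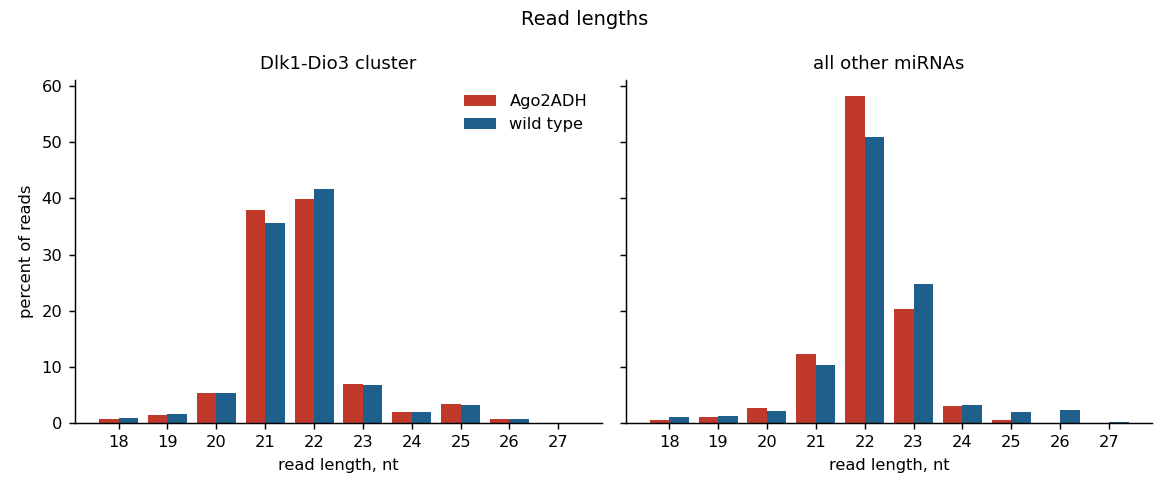
Read lengths, as a percent of reads, of the cluster (left panel) and of all other miRNAs (right panel). Left bars of each pair are the Ago2ADH library and right bars the wild type library. The cluster has about as many reads of 21 nt (38.0% in Ago2ADH, 35.6% in wild type) as of 22 nt (39.9% in Ago2ADH, 41.7% in wild type), while the other miRNAs have most at 22 nt; their wild type reads of 25 and 26 nt are mostly those of mir-451.

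The main reads of the 73 arms began with A in 29, U in 27, G in 9 and C in 8, which is 39.7% A and 36.99% U. Among the 281 other arms the shares were 28.5% A and 44.5% U. By wild type reads the larger arm was the 3p arm in 32 member hairpins and the 5p arm in 15. The main read was taken over the reads of both libraries together. By library the larger arm differed in mir-299, mir-539 and mir-540, as given above.

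Counted by reads, uridine added at the 3′ end was more frequent in the cluster than over all other miRNAs together, and close between the libraries. Reads that matched a member arm plus 1 U that is not in the genome were 8.22% of the arm reads in Ago2ADH (8.13 to 8.30) and 8.03% in wild type (7.94 to 8.12), beside 4.65% in Ago2ADH and 4.24% in wild type for the other miRNAs. Added A was at 8.45% in Ago2ADH and 8.58% in wild type, beside 8.39% in Ago2ADH and 8.37% in wild type. Added C and G stayed below 0.5% in the cluster. These shares weigh each read alike, and the other miRNAs include mir-122, with 1195978 reads in Ago2ADH and 1085919 in wild type. Where the next genome base equals the added base, the addition could not be counted. The cluster and the other miRNAs were not compared arm by arm.

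Single arms differed widely in added U. miR-667-3p carried it in 72.8% of reads in Ago2ADH and 68.8% in wild type, and miR-666-3p in 53.3% in Ago2ADH and 56.5% in wild type. For miR-665-3p it was 44.8% in Ago2ADH (43.8 to 45.8) and 39.3% in wild type (38.0 to 40.5). In the mir-299 hairpin added A stood at 9.65% in Ago2ADH and 4.54% in wild type on the 5p arm, and at 9.72% in Ago2ADH and 14.5% in wild type on the 3p arm. These arms were picked after their values were seen.

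Editing of adenosine to inosine, read as A-to-G, is known for members of this cluster in brain. Here A-to-G reads were 0.847% of the main reads in Ago2ADH and 0.795% in wild type, against 1.32% in Ago2ADH and 1.67% in wild type for G-to-U and 1.18% in Ago2ADH and 1.56% in wild type for U-to-C. Of the 12 kinds of base change A-to-G was the 1 with a higher share in Ago2ADH, by 0.051 percentage points when changed reads are counted in the total (interval -0.0033 to 0.105), and the other 11 had a lower share there. The most frequent position was A5G of miR-411-5p (the base of the main read first, counted from its 5′ end), with 58 reads in Ago2ADH and 52 in wild type, 0.607% (0.461 to 0.784) and 0.656% (0.491 to 0.860) of reads. The same position of miR-379-5p, A5G, had 28 reads in Ago2ADH and 10 in wild type, 0.326% (0.217 to 0.471) and 0.107% (0.051 to 0.196). In miR-376b-3p A6G stood at 0.192% in Ago2ADH and 0.193% in wild type.

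Fragments of the domain's long transcripts were sparse. Dlk1, a membrane protein of fetal tissues, had 141 reads in Ago2ADH and 131 in wild type, for a log2 ratio of 0.22 (-0.14 to 0.57) when scaled to all reads. Reads listed under Meg3 numbered 325 in Ago2ADH and 249 in wild type (0.49, interval 0.25 to 0.74), of which 123 in Ago2ADH and 77 in wild type lie on an annotated Meg3 transcript and the others on none. Over all classes but miRNA, reads that match the Meg3 transcripts once, on their own strand, numbered 213 in Ago2ADH and 126 in wild type (0.87, interval 0.54 to 1.20). Dio3, the deiodinase that inactivates thyroid hormone, had 3 reads in Ago2ADH and 1 in wild type.

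Reads listed under Rtl1 numbered 58 in Ago2ADH and 44 in wild type. Of these, 52 in Ago2ADH and 39 in wild type match the strand opposite the Rtl1 message, which is the strand of the miRNA hairpins, and 5 in Ago2ADH and 5 in wild type match the message itself. Rian and Mirg are names under which the table lists 0 reads. Reads outside the miRNA class that match their annotated transcripts once and lie in no hairpin numbered 638 in Ago2ADH and 748 in wild type for Rian (-0.12, interval -0.28 to 0.03) and 80 in Ago2ADH and 101 in wild type for Mirg (-0.23, interval -0.67 to 0.21).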

How the data were processed

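Small RNA of fetal mouse liver was compared between 2 libraries, 1 per genotype. The authors deposited raw counts, 1 per distinct read sequence and library (2344366 sequences), with genome matches, a class and a name per the file headers. For the aligner, build and trimming, not given in the sources used here, no value is stated. The table has no class for added bases, so these were found among reads with 0 genome matches.

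Reads of the miRNA class were placed by exact match on GENCODE M21 hairpins (GRCm38). The arm was set by the read's middle. Counts were scaled to miRNA reads. Ratios have exact conditional binomial intervals, shares exact Clopper-Pearson intervals, and minor-arm odds a Woolf interval with 0.5 added. Calls needed 100 or more reads and a 2-fold change with an interval excluding equality, 20 or more minor-arm reads for odds, and 200 or more reads with 10 percentage points for starts and lengths. Transcript fragments were scaled to all reads.

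Named were arms past the size rule under any scaling, the 12 most abundant, arms opposite Rtl1, shifted hairpins, the 5 largest start and length differences, shared seeds and 6 transcripts. Members and lists were chosen with earlier results of these data known. Scripts used Python 3.11.15, scipy 1.17.1 and edgeR 4.0.16 (TMM). The size rule and the minor-arm rule were tested on simulated counts, and the other rules were not. Alternatives were other scalings, read lengths, unique genome matches, minimums and limits.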

Additional observations from a re-analysis of the deposited data

Results flagged for a closer look

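Places of the domain whose reads none of the comparisons above use were listed here only when the interval of their log2 ratio lay above 0. The higher level in Ago2ADH at the 2 places listed is thus the condition for listing them. The hairpin of Mir3072, which lies within Mirg and is not among the 47 names, had 1704 reads in Ago2ADH and 1359 in wild type, all listed outside the miRNA class. Scaled to miRNA reads, its log2 ratio was 0.32 (interval 0.22 to 0.43). Reads listed under Dio3os, the noncoding RNA beside Dio3, numbered 183 in Ago2ADH and 109 in wild type. Scaled to all reads, their log2 ratio was 0.86 (interval 0.51 to 1.21), so the 2 ratios do not share a scale. Of the Dio3os reads, 182 in Ago2ADH and 108 in wild type match its annotated strand. The cause was not tested for either.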

How the results depend on the processing

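No paired analysis was possible because each genotype has 1 library. The count of 3 member arms past the size rule was 2 or 3 under each scaling, with reads of 20 to 24 nt, with 1 genome match, with deposited arm names and with a minimum of 500 reads, and 4 with added-base reads, an alternative chosen after seeing the data. The direction was not the same throughout: without the 10 most abundant arms 1 arm was higher and 1 lower, and without mir-451 2 were higher and 1 lower, miR-381-5p in each case. It was 5 with a minimum of 50 reads, 11 with a limit of 1.5-fold, 1 with 3-fold and 0 with distinct sequences, where 4 arms were left to test. The median log2 ratio of 0.12 was 0.23 with scaling to all reads, -0.079 without the 10 most abundant arms and -0.054 without mir-451. The log2 ratio of the cluster's share, 0.22, was 0.33 with scaling to all reads, 0.065 with median-of-ratios, 0.073 with TMM, 0.014 without the 10 most abundant arms, 0.039 without mir-451 and 0.16 with reads of 20 to 24 nt. Hairpins with a shifted minor arm numbered 12 at a limit of 1.5-fold and 5 under the other settings. Arms with a shifted start numbered 6 at 5 percentage points, and arms with a shifted length 7 at 5 percentage points and 0 with reads of 24 nt or longer, where miR-485-5p reversed to -1.60 percentage points. The counts of arms at other limits and minimums are given without the share called over all arms at the same setting. They show how the count depends on the setting, not whether members differ from other miRNAs. Fragments of the locus transcripts together, 0.42, were at 0.61 with reads of all classes but miRNA placed on the transcript strand of the same genes, and at 0.069 when Rian and Mirg, for which no reads are listed, were counted too, both chosen after seeing the data. The difference in added bases was 0.19 percentage points for U and -0.13 for A. The causes were not tested. Depth limits the low members: 19 arms had under 100 reads.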

Other observations

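Other hairpins of the region were measured apart from the members. The hairpin of Mir1193 had 851 reads in Ago2ADH and 1186 in wild type, for a log2 ratio of -0.48 (-0.61 to -0.35). Mir1197 had 96 reads in Ago2ADH and 105 in wild type, and Mir1188 had 51 in Ago2ADH and 56 in wild type. Mir432, Mir453 and Mir882 had 0 reads in both libraries.

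Arms under the read minimum included miR-539-3p, given above, whose log2 ratio of 1.91 was the highest among member arms with 3 or more reads in each library. miR-544-3p had 60 reads in Ago2ADH and 24 in wild type, for a log2 ratio of 1.32 (0.62 to 2.07), and miR-541-3p had 33 reads in Ago2ADH and 15 in wild type (1.14, interval 0.22 to 2.12).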
